A study of Mus musculus with 7 samples.

Results

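The genes described here encode the subunits of the vacuolar proton pump (V-ATPase) and the cathepsins, measured in mouse malignant peripheral nerve sheath tumors (MPNSTs). They were chosen by symbol alone as every feature whose name begins with Atp6v0 or Atp6v1, or consists of Cts and 1 letter, leaving out Atp6v0d2 and Ctsk because these are markers of osteoclast-like cells. The rule gave 39 of the 33696 features in the count matrices, of which 22 were V-ATPase genes and 17 were cathepsins. Atp6v1fnb was among the 22 by its symbol, although it is named as a neighbor of Atp6v1f and not as a subunit.

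The V-ATPase pumps protons into lysosomes and endosomes. Its V1 sector (subunits A to H) sits in the cytosol and hydrolyses ATP, and its V0 sector (subunits a, b, c, d and e) forms the proton channel in the membrane. Cathepsins are the proteases that work in the resulting acid. Most are cysteine proteases, cathepsins D and E are aspartic proteases, and cathepsins A and G are serine proteases. Macrophages are rich in lysosomes and use cathepsins to degrade engulfed material and to process antigen, and osteoclasts carry the V-ATPase on their surface to acidify bone.

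Single-cell 3′ RNA sequencing was performed on 7 subcutaneous allografts grown from 1 cell line, JW23.3, a murine MPNST line that the study describes as deficient in Nf1. The hosts of both groups were immunocompetent female wild-type C57/B6 mice aged 5 to 6 weeks, all implanted with the same number of cells. On day 7 the mice were randomized on tumor size, 4 tumors then received 5 daily fractions of 2 Gy with lead shielding of the rest of the body (irradiated 1 to 4), 3 received none (control 1 to 3), and all 7 were harvested on day 21. Each tumor gave 1 library, and all tumors share the genotype of 1 line. The comparisons asked which cell types carried the lysosomal genes, how macrophage subsets differed in them, and whether irradiated tumors differed from controls.

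The libraries held 2859 to 8452 called cells and 53496570 to 153044123 unique molecular identifiers (UMIs, each standing for 1 captured transcript), with a median of 6059 to 17931 UMIs per cell. Of 39537 deposited cells, 34296 passed the filters and 30544 were assigned to a class by marker genes that included no member of the module. There were 14134 MPNST-like, 13185 macrophage-like, 1393 T/NK-like, 562 endothelial-like, 364 fibroblast-like, 310 dendritic-like and 271 pericyte-like cells. The collagen gene Col11a1 stood at 1532 CPM (counts normalized to the total of a class in a tumor) in MPNST-like cells and 114 in macrophage-like cells, whereas the complement gene C1qa stood at 14.7 CPM in the tumor cells and 4302 CPM in macrophage-like cells. Pairs of libraries shared 3 to 19 barcodes, at most 0.397% of the smaller library. UMIs were summed per tumor and class for every test, which was the quasi-likelihood test of edgeR with p-values adjusted by the Benjamini-Hochberg method over all genes tested, and a gene is said to have been called where its adjusted p was under 0.05. Levels are given as these CPM. Higher and lower refer to levels relative to the other transcripts of a class, and not to counts per cell. Since 3′ tags give 1 UMI per transcript whatever its length, CPM were also used to set genes side by side.

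Most members were detected in some class. Among V-ATPase genes, 11 reached a mean of 100 CPM in at least 1 of the 7 classes and 15 reached 10 CPM, whereas Atp6v1b1, Atp6v1c2, Atp6v1e2, Atp6v1g3 and Atp6v1fnb stayed under 1 CPM in every class. Among cathepsins, 9 reached 100 CPM and 12 reached 10 CPM. No UMI was found for Ctsj, Ctsm and Ctsr, and Ctsg and Ctsq stayed under 1 CPM in every class, which for 0 of 116403197 macrophage-like UMIs allows a level of up to 0.0258 CPM for genes such as Ctsj (counting error only). Macrophage-like cells had the highest mean level of 12 of the 15 V-ATPase genes and of 8 of the 12 cathepsins that reached 10 CPM.

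**Figure D1:**
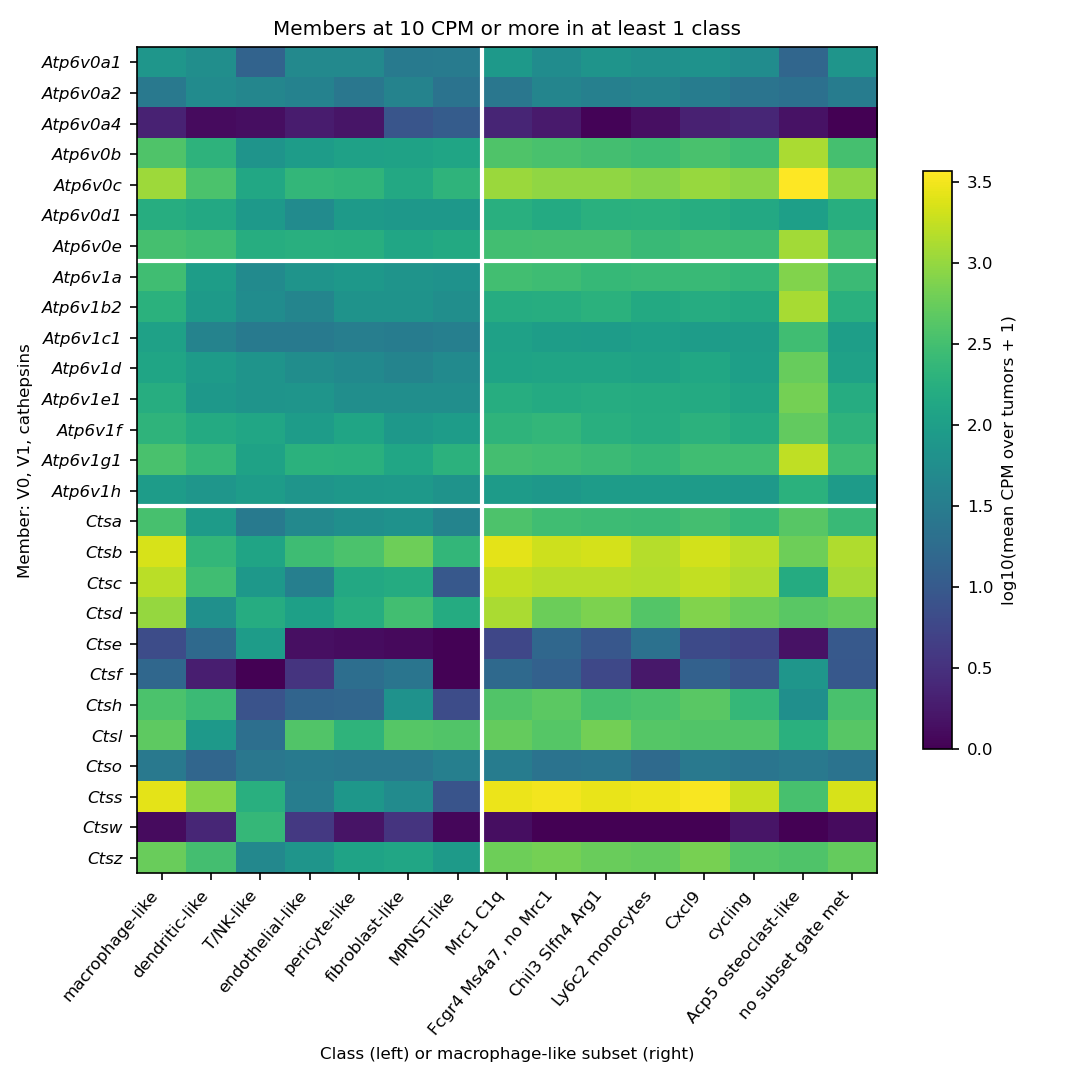
Mean level over tumors (color, log10 of CPM + 1) of the members that reached 10 CPM, in 7 cell classes (left) and the macrophage subsets (right). Macrophage-like cells had the highest mean for 12 of the 15 V-ATPase genes and 8 of the 12 cathepsins, and Ctsw and Ctse were highest in T/NK-like cells at 237 and 92.7 CPM.

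Cathepsins and V-ATPase genes were both a larger part of the macrophage transcriptome than of the tumor cell transcriptome, and the cathepsins by far the more so. The 17 cathepsins together took 0.921% ± 0.073 (SD, n = 7 tumors) of the UMIs of macrophage-like cells and 0.095% ± 0.007 of those of MPNST-like cells. The 22 V-ATPase genes took 0.359% ± 0.021 of macrophage-like and 0.124% ± 0.009 of MPNST-like UMIs. The ratio of V-ATPase to cathepsin UMIs was therefore 0.393 ± 0.050 in macrophage-like cells, the lowest of the 7 classes, and 1.30 ± 0.088 in MPNST-like cells, next to 1.27 ± 0.167 in endothelial-like cells. Dendritic-like cells lay between them at 0.890 ± 0.150. These are shares of all UMIs, and the median cell had 22750 UMIs among MPNST-like and 6520 among macrophage-like cells. A larger share in macrophage-like cells therefore need not mean more transcripts per cell, which was not tested.

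Macrophage-like cells were compared with MPNST-like cells of the same 7 tumors, with the tumor as a block. Of the 27 members tested, 26 were higher in macrophage-like cells and 1 was lower, against a background in which 84.8% of all genes tested were called, 41.8% higher and 43% lower. The median log2 fold change was 3.72 for the 11 cathepsins tested, 1.69 for the 16 V-ATPase genes tested, and -0.02 for all genes. In 21 of the members higher in macrophage-like cells, the lowest macrophage-like tumor lay above the highest MPNST-like tumor, and 22.4% of all genes tested were called higher with the same separation.

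The catalytic head of the pump is built from the A and B subunits. Atp6v1a, which encodes the ATP-hydrolysing A subunit, ranged from 256 to 324 CPM in macrophage-like cells (median 298) and from 53.2 to 82.7 CPM in MPNST-like cells (median 64.7). It was 2.65 ± 0.09 (log2, SE) higher in macrophage-like cells (edgeR adjusted p = 2.5e-09), and the groups did not overlap. Its partner Atp6v1b2, for subunit B, was 2.19 higher on the log2 scale. Genes for the stalks that join the head to the membrane followed at smaller differences, Atp6v1c1 at 2.14, Atp6v1e1 at 1.99, Atp6v1d at 1.75, Atp6v1f at 1.61 and Atp6v1g1 at 1.26. Atp6v1h, for the regulatory H subunit, was the V1 gene closest to even among those above 10 CPM, at 0.93 ± 0.08, with 91.7 ± 10.5 CPM against 65.8 ± 5.32 CPM in MPNST-like cells.

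The proteolipid ring that carries protons through the membrane gave the most abundant V-ATPase transcript. Atp6v0c, for the ring subunit c, ranged from 996 to 1172 CPM in macrophage-like cells (median 1119) and from 155 to 235 CPM in MPNST-like cells (median 214). It was 2.85 ± 0.11 (log2, SE) higher in macrophage-like cells (edgeR adjusted p = 6.8e-09), a 7.23-fold difference with no overlap between the classes. Atp6v0b, whose product joins the same ring, was 2.07 higher, Atp6v0e 1.63 higher and Atp6v0d1, for the d subunit, 1.52 higher on the log2 scale.

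The a subunit, which steers the pump to a given membrane, was the place where the classes differed most in paralog use. Of the UMIs of the 4 paralogs in macrophage-like cells, 49.5% ± 5.21 (SD, n = 7) came from Tcirg1 (a3, the paralog named for osteoclasts, which the symbol rule does not take in), 36.7% ± 5.70 from Atp6v0a1, 13.2% ± 1.73 from Atp6v0a2 and 0.59% ± 0.47 from Atp6v0a4. In MPNST-like cells the shares were 26.5% ± 6.21 for Tcirg1, 35.1% ± 2.72 for Atp6v0a1, 26.2% ± 1.25 for Atp6v0a2 and 12.1% ± 4.75 for Atp6v0a4. Atp6v0a4, known from the acid-secreting cells of the kidney, was the only member called lower in macrophage-like cells. It stood at 2.98 to 16.2 CPM in MPNST-like tumors (median 10.0) and 0 to 2.86 CPM in macrophage-like cells (median 1.03), without overlap, a log2 fold change of -2.78 ± 0.29 (edgeR adjusted p = 1e-05). The gene body of D630045J12Rik overlaps that of Atp6v0a4 on the same strand, and whether this affects its reads was not tested. For subunits C and G a single gene supplied nearly all UMIs in both classes. Atp6v1c1 gave 99.9% of macrophage-like and 97.7% of MPNST-like UMIs of subunit C, and Atp6v1g1 gave 98.7% and 97.9% (as means over tumors) of subunit G UMIs. Atp6v0d1 gave 99.9% of the d subunit UMIs in MPNST-like cells and 80.3% ± 10.7 in macrophage-like cells, where the osteoclast gene Atp6v0d2 gave the rest.

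The cathepsins fell into a set nearly private to host cells and a set shared with the tumor cells. Ctss, for cathepsin S of the antigen-processing compartment (chr3:95526786-95556403, GRCm38), ranged from 2076 to 3304 CPM in macrophage-like cells (median 2613) and from 4.29 to 11.1 CPM in MPNST-like cells (median 7.77). Its log2 fold change of 8.97 ± 0.26 (edgeR adjusted p = 8.7e-10) was the largest of any member that reached 10 CPM in either class. Ctsf followed at 8.42 ± 0.26, although at a low level of 14.3 ± 8.06 CPM in macrophage-like cells. Ctsc, for the dipeptidase that activates granule serine proteases, was 257-fold higher and Ctsh 85.5-fold higher. The small MPNST-like levels of Ctss, Ctsf and Ctsc lay near those of transcripts that mark macrophages, and that of Ctsh lay above them. Summed over tumors, Ctss in MPNST-like cells was 0.306% of its macrophage-like level, where C1qa, C1qb, C1qc and Csf1r stood at 0.318% to 0.351%, and Ctsf was at 0.420%, Ctsc at 0.565% and Ctsh at 1.59%. The C1q genes and Csf1r were among the markers of the macrophage gate. The part of free RNA in the MPNST-like values of Ctss, Ctsf, Ctsc and Ctsh was not tested.

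The shared set was led by Ctsl, for the broadly expressed endopeptidase cathepsin L. It ranged from 390 to 639 CPM in macrophage-like cells (median 466) and from 313 to 512 CPM in MPNST-like cells (median 372), and the classes overlapped. The fitted difference was 0.76 ± 0.13 (log2, SE, edgeR adjusted p = 0.00037), and macrophage-like cells had the higher CPM in 5 of 7 tumors. Ctsb differed by 3.72 ± 0.10, Ctsa by 3.57 ± 0.08, Ctsz by 3.18 ± 0.11 and Ctsd by 3.16 ± 0.12, each with MPNST-like levels well above those of the macrophage markers, at 10.6% of the macrophage-like level for Ctsb and 16.0% for Ctsd. The direction of Ctso depended on the scaling. Its fitted log2 fold change was 0.14 ± 0.06 (edgeR adjusted p = 0.042), but its CPM was lower in macrophage-like cells in 7 of 7 tumors (27.0 ± 2.39 against 33.6 ± 3.34). With total UMIs in place of TMM factors the median of all genes moved by -0.46, Ctso was called lower, Atp6v1g2 was no longer called, and the members split into 24 higher and 2 lower (higher calls among all genes 34.1% against 49.3%).

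**Figure D2:**
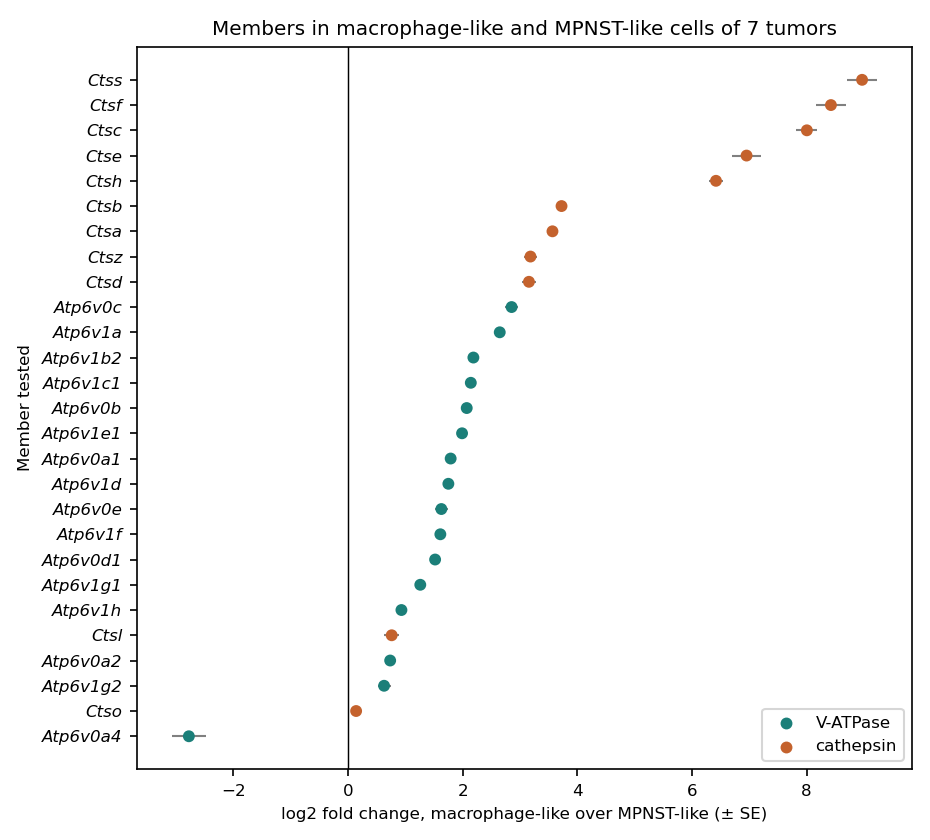
Fitted log2 fold change between macrophage-like and MPNST-like cells for the 27 members tested (points, with SE as bars, 7 tumors). Members right of 0 were higher in macrophage-like cells, from Ctso at 0.14 to Ctss at 8.97, and Atp6v0a4 lies left of it at -2.78.

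Other genes of the lysosome followed the same direction in most cases. Of the V-ATPase partners tested, 7 of 9 were higher in macrophage-like cells and 0 lower (median log2 fold change 2.08), as were 29 of 31 lysosomal hydrolases with 2 lower (median 2.48) and 20 of 24 membrane and transport genes with 3 lower (median 1.97). A further list held the MiT/TFE transcription factors Tfeb, Tfe3, Mitf and Tfec, which drive lysosomal genes. It also held inputs to these factors, namely Flcn, Rragc, Rragd, Mtor and the Lamtor genes. Of its 13 genes, 11 were higher and 0 lower (median 1.01), a count that does not separate factors from inputs. The largest differences in these lists were those of Laptm5 (9.04 ± 0.23, log2, SE), a lysosomal membrane protein of blood cells, Slc11a1 (8.50 ± 0.15), the phagosomal metal transporter, Tfec (7.87 ± 0.29), the myeloid member of the MiT/TFE family, and Dmxl2 (7.38 ± 0.17), a V-ATPase assembly factor. Cathepsin inhibitors were divided, 3 higher and 3 lower of 8 (median 0.10). Cst6, which encodes a secreted cystatin, was at -2.90 ± 0.22 (log2, SE), Igf2r, the receptor that sorts mannose 6-phosphate tagged enzymes, was at -2.22 ± 0.10, Laptm4b at -2.08 ± 0.19 and the protease inhibitor Serpinb1a at -1.52 ± 0.20.

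The proximal promoters of 30 of the 39 members could be matched in RefSeq (GRCm38.p6, 250 bases before to 50 after each gene start). They were searched on both strands, which read alike for these palindromes, for CACGTG and for TCACGTGA, which contains it and is the core of the element bound by the MiT/TFE factors (CLEAR). TCACGTGA was found in 5 of the 30 members (16.7%) and in 1.12% of 27025 genes with a promoter window. CACGTG was found in 8 of the 30 (26.7%) and in 8.09% of genes, the additional members being Atp6v0b, Ctsl and Ctsf. The full consensus of that element, TCACGTGA with a G before it and a C after it, was found in 0 of the 30 members and in 0.37% of genes. The windows of the 5 members with TCACGTGA are printed to show where the element lies, from 150 bases before the gene start to 20 bases into the gene, 5′ to 3′ on the strand of the gene, with the element in capitals. They lie at chr16:44139240-44139409 (minus strand) for Atp6v1a, chr8:105566045-105566214 (minus) for Atp6v0d1, chr17:26676246-26676415 (plus) for Atp6v0e, chr2:164833623-164833792 (plus) for Ctsa and chr7:142387808-142387977 (minus) for Ctsd.
Atp6v1a: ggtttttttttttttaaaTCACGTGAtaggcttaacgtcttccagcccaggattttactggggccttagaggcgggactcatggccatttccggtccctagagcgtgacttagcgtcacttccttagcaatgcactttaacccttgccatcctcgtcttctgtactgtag
Atp6v0d1: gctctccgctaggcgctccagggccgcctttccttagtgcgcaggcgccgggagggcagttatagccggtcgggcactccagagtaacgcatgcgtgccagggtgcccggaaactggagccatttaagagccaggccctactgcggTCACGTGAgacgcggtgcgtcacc
Atp6v0e: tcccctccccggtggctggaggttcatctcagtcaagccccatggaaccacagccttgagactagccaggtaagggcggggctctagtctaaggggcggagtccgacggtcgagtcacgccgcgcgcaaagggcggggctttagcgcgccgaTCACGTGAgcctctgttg
Ctsa: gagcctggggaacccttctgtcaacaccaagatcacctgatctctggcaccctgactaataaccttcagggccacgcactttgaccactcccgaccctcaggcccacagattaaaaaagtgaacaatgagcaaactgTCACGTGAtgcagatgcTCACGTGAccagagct
Ctsd: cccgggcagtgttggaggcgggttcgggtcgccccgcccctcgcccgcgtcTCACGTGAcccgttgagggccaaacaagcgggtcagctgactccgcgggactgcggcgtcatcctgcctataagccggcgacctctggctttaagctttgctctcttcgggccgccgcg
Counted from the RefSeq start of the window as 0, the element began at -132 in Atp6v1a and -99 in Ctsd. It began at -13 for the upstream copy of the 2 in Ctsa, -4 in Atp6v0d1 and 2 in Atp6v0e. Ctsa had 2 windows, and the printed bases are from the one further downstream (chr2:164833523-164833822). The other (chr2:164832622-164832921) held no CACGTG. A match describes the letters of the window and says nothing of binding. In the comparison of macrophage-like with MPNST-like cells these 5 genes had log2 fold changes of 2.65 (Atp6v1a), 1.52 (Atp6v0d1), 1.63 (Atp6v0e), 3.57 (Ctsa) and 3.16 (Ctsd).

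Which cathepsins made up the total differed by class. In macrophage-like cells Ctss gave 28.3% ± 2.17 (SD, n = 7) of cathepsin UMIs, Ctsb 24.0% ± 1.48, Ctsc 17.2% ± 0.64 and Ctsd 11% ± 1.91. In MPNST-like cells Ctsl led with 40.6% ± 5.02, before Ctsb with 24.1% ± 1.33 and Ctsd with 16.3% ± 2.81. Endothelial-like cells were also led by Ctsl (37.0% ± 10.4), and fibroblast-like and pericyte-like cells by Ctsb (32.9% ± 3.82 and 30.3% ± 3.32). Dendritic-like cells were led by Ctss (37.8% ± 5.35), and T/NK-like cells by Ctsw (23.6% ± 4.90).

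**Figure D3:**
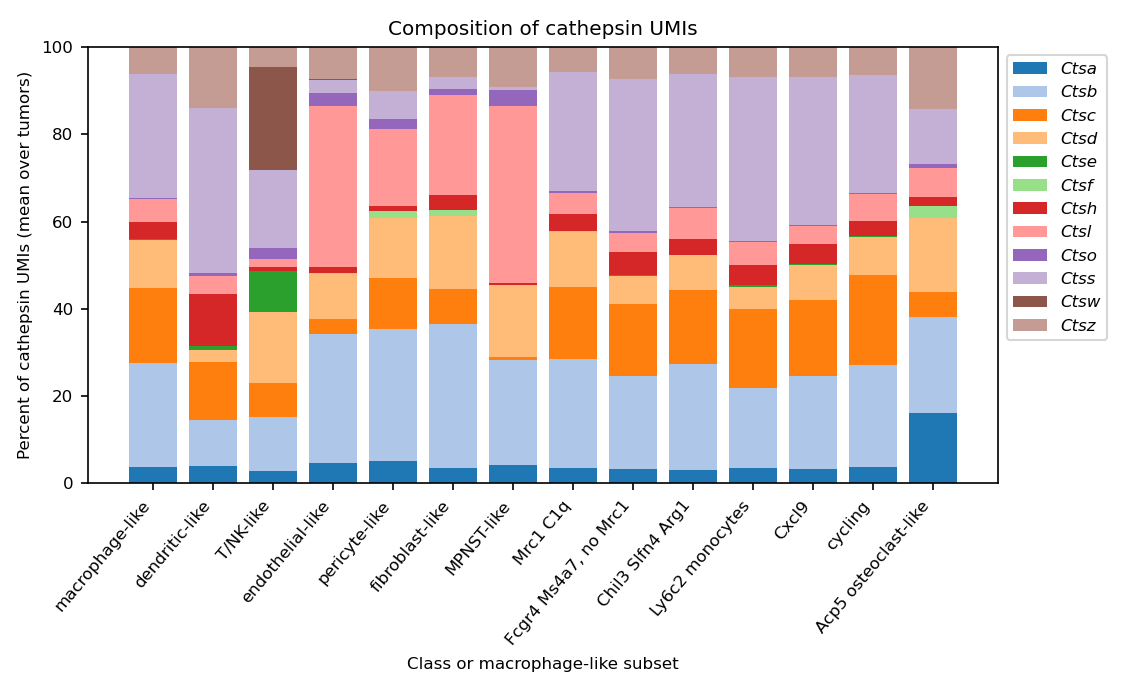
Mean share (percent) of each cathepsin in the cathepsin UMIs of a cell class or macrophage subset. Ctss and Ctsb lead in macrophage-like cells at 28.3% and 24.0%, Ctsl leads in MPNST-like cells at 40.6%, and Ctsw leads in T/NK-like cells at 23.6%.

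Dendritic-like cells carried less of nearly every lysosomal protease than macrophage-like cells, with cathepsins S, H and Z the least reduced of the abundant ones. Of 26 members tested, 2 were higher and 22 lower in dendritic-like cells (background 32.8% of all genes called, 13.8% higher and 19% lower), with a median log2 fold change of -2.01 for cathepsins, -0.57 for V-ATPase genes and -0.09 for all genes. Ctsd, for the main aspartic protease of lysosomes, ranged from 37.6 to 82.3 CPM in dendritic-like cells (median 61.2) and from 826 to 1213 CPM in macrophage-like cells (median 1027). That made it the member with the lowest log2 fold change, at -4.21 ± 0.14 (edgeR adjusted p = 2.3e-14). Ctsf had only 3 UMIs in dendritic-like cells and was 14.5-fold higher in macrophage-like cells (95% counting interval 4.96 to 70.5). Ctsb was at -3.38 ± 0.12, Ctsl at -2.78 ± 0.45, Ctsc at -2.59 ± 0.13 and Ctsa at -2.01 ± 0.15. Ctss at 853 ± 225 CPM and Ctsh at 271 ± 84.7 CPM remained among the abundant transcripts of dendritic-like cells, at 33.7% and 79.4% of the macrophage-like level, when C1qa, C1qb and C1qc were at 1.31% to 1.54%. The members called higher were Atp6v0a2 (0.87 ± 0.17, edgeR adjusted p = 0.00038), with 39.2 to 72.2 CPM (median 47.3) against 21.5 to 36.0 CPM (median 24.2), and Ctse (1.33 ± 0.35, edgeR adjusted p = 0.0059), at 15.8 ± 7.41 CPM. Scaling to total UMIs shifted all genes by 0.11, left 2 members higher and 19 lower, and gave 53.0% higher calls among all genes in place of 42.0%. Dendritic-like sums were small, 255208 to 665492 UMIs per tumor.

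T/NK-like cells were higher than macrophage-like cells in cathepsins W and E and lower in most other members. Against macrophage-like cells, 4 of 27 members were higher and 21 lower, where 70.3% of all genes were called (31.2% higher, 39.1% lower). The median log2 fold change was -3.96 for cathepsins, -1.45 for V-ATPase genes and -0.14 for all genes. Ctsw, which encodes a cathepsin of cytotoxic lymphocytes, stood at 139 to 297 CPM in T/NK-like cells (median 251) and at a mean of 0.289 CPM in macrophage-like cells, a log2 fold change of 9.47 ± 0.25 (edgeR adjusted p = 3.3e-12). Ctse, an aspartic protease of endosomes, ranged from 67.8 to 139 CPM (median 88.3) against a median of 6.07 CPM in macrophage-like cells, and was 3.84 ± 0.18 higher on the log2 scale. Every T/NK-like sample lay above every macrophage-like sample for both genes. The other members called higher were Atp6v0a2 (0.51 ± 0.14), which gave 58.3% ± 8.98 of the a subunit UMIs in these cells, and Atp6v1g2 (0.91 ± 0.31), the G paralog known from neurons. Ctsh was at -5.99 ± 0.26, Ctsl at -4.92 ± 0.35, Ctsc at -4.52 ± 0.15, Ctsb at -4.36 ± 0.09 and Ctss at -4.07 ± 0.11. Ctsf had 0 of 5818111 UMIs in T/NK-like cells, which allows up to 0.516 CPM over the group and leaves macrophage-like cells at least 27.8-fold higher. Ctss remained at 6.57% and Ctsb at 5.56% of the macrophage-like level, when C1qa, C1qb and C1qc were at 1.15% to 1.29%. Ctso and Atp6v1h were not called, and total-UMI scaling, which moved all genes by 0.17, gave the same 4 and 21. This comparison and the one with dendritic-like cells share the macrophage-like samples.

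Among the stromal classes, fibroblast-like cells had the largest mean cathepsin share. The sum was 0.183% ± 0.035 in fibroblast-like, 0.119% ± 0.016 in pericyte-like (n = 6 tumors) and 0.101% ± 0.020 in endothelial-like cells. In fibroblast-like cells 9 of 26 members were higher than in MPNST-like cells and 4 lower, against 51% of all genes called (22.1% higher, 28.9% lower). Ctsf stood at 7.70 to 37.4 CPM (median 23.7), the highest mean of the 7 classes, and was 8.65 ± 0.54 higher on the log2 scale (edgeR adjusted p = 1.9e-09). Ctsc was 4.12 ± 0.18 higher, Ctsh 3.44 ± 0.17, Ctss 2.55 ± 0.53, Ctsb 1.35 ± 0.12 and Ctsd 0.95 ± 0.10. The level of Ctss was 1.92% of that in macrophage-like cells, within the 1.90% to 2.49% of the C1q genes, whereas Ctsc at 10.5% and Ctsh at 19.5% lay above it. Atp6v1g1 (-0.68 ± 0.12), Atp6v0c (-0.64 ± 0.15), Ctso (-0.43 ± 0.16) and Atp6v1d (-0.35 ± 0.13) were called lower.

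In endothelial-like cells 8 of 25 members were higher than in MPNST-like cells and 5 lower, against 56.2% of all genes called (26.9% higher, 29.3% lower). Ctss (2.13 ± 0.28, log2, SE), Ctsc (2.01 ± 0.32) and Ctsh (1.22 ± 0.25) had the largest differences among the members called higher. Their levels were 1.53%, 2.73% and 3.8% of those in macrophage-like cells, beside 1.51% to 1.58% for the C1q genes, and the part of macrophage RNA in these values was not tested. Atp6v0a2 (0.80 ± 0.18), Atp6v0a1 (0.72 ± 0.14) and Atp6v1e1 (0.38 ± 0.12) were also called higher. Atp6v0a4 (-3.29 ± 0.50), Atp6v0d1 (-0.56 ± 0.11), Ctsd (-0.52 ± 0.14), Atp6v1b2 (-0.41 ± 0.15) and Atp6v0b (-0.38 ± 0.12) were called lower. Ctsl was at 390 ± 183 CPM, with tumors from 199 to 662 CPM. The comparisons of both stromal classes share the MPNST-like samples.

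Within the macrophage-like class, subsets were gated on markers that include no member, and each subset was compared with the remaining macrophage-like cells of the same tumors. The osteoclast-like cells, gated on Acp5, Ctsk, Atp6v0d2 and 6 further osteoclast genes, stood furthest apart. They were few, with 28, 79 and 46 cells in controls 1 to 3 and 12, 7, 19 and 6 cells in irradiated 1 to 4, so that the test used the 3 controls. The V-ATPase genes took 1.18%, 1.22% and 1.27% of their UMIs in the controls (mean 1.23% ± 0.046) and the cathepsins other than Ctsk took 0.325%, 0.251% and 0.239% (mean 0.272% ± 0.047). Without the gate genes Ctsk and Atp6v0d2, the ratio of the families was 4.61 ± 0.876 in these cells and 0.337 ± 0.020 in Mrc1 C1q macrophages. That ratio rests on the exclusion. In osteoclast-like cells of the controls Ctsk stood at a mean of 11951 CPM and Atp6v0d2 at 1401 CPM, against 8.19 and 2.25 CPM in Mrc1 C1q macrophages. Ctsk would thus add far more UMIs to the cathepsins than Atp6v0d2 to the pump genes. The 4 irradiated tumors, below the minimum of 20 cells, gave V-ATPase shares of 0.950% to 1.26% and cathepsin shares of 0.206% to 0.326%. With Ctsk and Atp6v0d2 left out, the V-ATPase share of every one of these tumors was above its cathepsin share, as in the controls.

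In osteoclast-like cells 13 of 26 members were higher than in other macrophage-like cells and 10 lower, where 39.9% of all genes were called (17.2% higher, 22.7% lower). The V-ATPase genes, with 11 higher and 2 lower of 15, had a median log2 fold change of 1.59. The cathepsins, with 2 higher and 8 lower of 11, had a median of -1.38, and all genes one of -0.08. Atp6v1b2, for the B subunit, stood at 1321, 1372 and 1120 CPM in osteoclast-like cells of controls 1 to 3, against 153 ± 11.5 CPM (SD, n = 3) in the other macrophage-like cells. It was 3.1 ± 0.16 (log2, SE) higher (edgeR adjusted p = 5.1e-11), the largest difference among the members called higher, and 925 to 1369 CPM in the irradiated tumors with few cells lay far above the other macrophages as well. Atp6v1g1 was 2.48 ± 0.16 higher, Atp6v1d 2.40 ± 0.15, Atp6v1e1 2.22 ± 0.15 and Atp6v0e 2.00 ± 0.16. Atp6v0c at 3675 ± 170 CPM was the most abundant of the pump transcripts, with 1009 CPM in other macrophages.

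The 2 pump genes called lower both have a paralog known from osteoclasts. Atp6v0a1 stood at 23.5, 7.22 and 11.1 CPM in osteoclast-like cells of the controls against a mean of 77.9 CPM in other macrophages, a log2 fold change of -2.51 ± 0.29 (edgeR adjusted p = 2.8e-06). Tcirg1, its a3 paralog, was 1.59 ± 0.15 higher there (257 against 88.7 CPM) and gave 88.3% ± 0.73 of a subunit UMIs. Atp6v0d1 was at -0.69 ± 0.16 (edgeR adjusted p = 0.0019), with 101 against 165 CPM, beside its gate paralog Atp6v0d2 at 1401 CPM. The shares of a subunit paralogs did not enter the gate, whereas Atp6v0d2 did, so the d subunit share of 93.3% for Atp6v0d2 is fixed in part by the choice of cells.

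The abundant macrophage cathepsins were lower in the osteoclast-like cells. Ctss stood at 387, 250 and 375 CPM in controls 1 to 3, against a mean of 2391 CPM in other macrophage-like cells (-2.80 ± 0.17, edgeR adjusted p = 4.8e-10). Ctsc was at 182, 202 and 80.7 CPM, against a mean of 1519 CPM (-3.29 ± 0.25, edgeR adjusted p = 5.8e-07). Neither gene overlapped between the groups. Ctsh (-2.50 ± 0.18), Ctsb (-1.85 ± 0.16) and Ctsl (-1.38 ± 0.22) were also called lower. Among the 11 cathepsins tested, which leave out the gate gene Ctsk, Ctsf alone was more than 1 log2 unit higher, at 2.16 ± 0.25. It stood at 77.7, 79.4 and 64.9 CPM against 17.8 ± 6.70 CPM, and Ctsa was 0.43 ± 0.15 higher. Among regulators, Mitf was 1.37 and Tfec 1.23 higher, whereas Tfeb (-0.06) and Tfe3 (-0.39) were not called. Of 9 V-ATPase partners, 6 were higher and 2 lower (median 0.67). With tumors of at least 5 cells (7 tumors, an alternative chosen after seeing the data), 13 members were higher and 11 lower, and the log2 fold changes of the members named here were 2.87 for Atp6v1b2 and -3.68 for Ctsc.

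**Figure D4:**
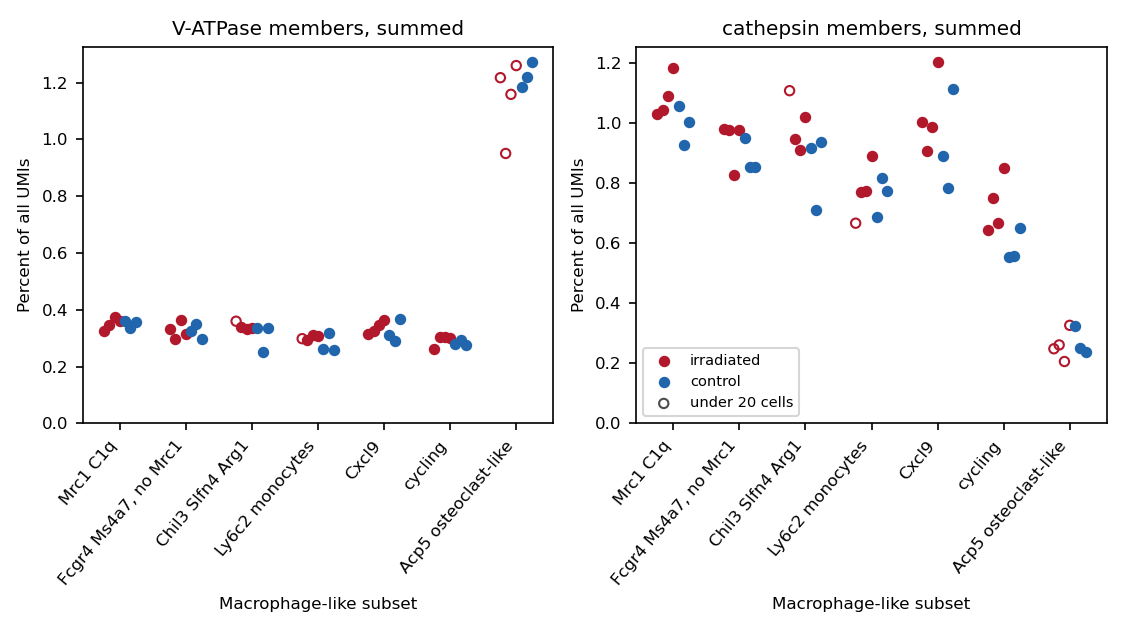
Summed percent of UMIs in V-ATPase genes and in cathepsins by macrophage subset, with 1 point per tumor (red irradiated, blue control, open where under 20 cells). Osteoclast-like cells have V-ATPase shares of 0.950% to 1.27% and cathepsin shares of 0.206% to 0.326%, while the mean cathepsin share of Mrc1 C1q macrophages is 1.05%. The gate genes Atp6v0d2 and Ctsk are left out of these sums.

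Mrc1 C1q macrophages, the largest subset with 8137 of the 13185 cells, gated on the mannose receptor gene and complement C1q genes, had the highest mean cathepsin share, 1.05% ± 0.078 (SD, n = 7). Here 14 of 26 members were higher than in the other macrophage-like cells and 2 lower (background 41.8%, with 20% higher and 21.9% lower), of which 10 of 11 cathepsins were higher. Ctsd ranged from 1060 to 1664 CPM (median 1229), against a mean of 609 ± 64.0 CPM in the others, without overlap (1.18 ± 0.07, edgeR adjusted p = 5.6e-08). Ctsb was 0.77 ± 0.06 higher, Atp6v0a1 0.67 ± 0.07, Ctsf 0.53 ± 0.17, Ctsh 0.51 ± 0.07 and Ctsa 0.47 ± 0.06. Atp6v1b2 (-0.48 ± 0.12) and Atp6v1d (-0.21 ± 0.08) were called lower, in a comparison whose other side includes the osteoclast-like cells. Scaling to total UMIs gave 11 higher and 3 lower, and 32.1% higher calls among all genes in place of 47.7%. Of the 31 lysosomal hydrolases tested, 26 were higher and 0 lower (median 0.45).

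Cycling macrophages, gated on proliferation genes such as Mki67, had low levels relative to all UMIs for the whole module. Their median was 16069.5 UMIs per cell, against 6520 for the whole macrophage-like class. Lower relative levels therefore need not mean fewer transcripts per cell, which was not tested. All 26 members tested were called lower (background 54.5%, of which 27.3% lower), from Ctsf at -1.12 ± 0.15 to Atp6v1c1 at -0.30 ± 0.06, with a median log2 fold change of -0.56 beside 0.01 for all genes. Ctsd ranged from 466 to 670 CPM (median 596), against a mean of 1090 ± 191 CPM in non-cycling macrophage-like cells, a log2 fold change of -1.01 ± 0.08 (edgeR adjusted p = 3.3e-07). Ctsh was at -0.83 ± 0.06, Ctss at -0.73 ± 0.07, Ctsb at -0.70 ± 0.06 and Atp6v1e1 at -0.66 ± 0.07. Of these cells 9.62% were marked as doublets, and with doublets removed 25 members were lower. Scaling to total UMIs shifted all genes by 0.10, left 25 members lower and moved the higher calls among all genes from 49.9% to 62.0%.

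In the remaining subsets 5 to 10 of 26 members were called, where 6.77% to 18.5% of all genes were. Ctsd was lower in each of them than in the remaining macrophage-like cells. That remainder held the Mrc1 C1q macrophages, whose mean Ctsd was 1308 CPM, whereas Cxcl9 macrophages stood at 782 CPM. In Ly6c2 monocytes, the precursors recruited from blood, 2 of 26 members were higher and 8 lower (background 11.2% of all genes, 4.71% higher and 6.44% lower, 6 tumors). Ctsd ranged there from 265 to 493 CPM (median 422) against a mean of 1019 CPM (-1.35 ± 0.11, edgeR adjusted p = 2.9e-11). Ctsf had 3 UMIs there and was 14.7-fold higher in the others (95% counting interval 5.01 to 71.2). Ctsb (-0.68 ± 0.09), Atp6v1g1 (-0.61 ± 0.11), Atp6v0c (-0.47 ± 0.09) and Atp6v0b (-0.45 ± 0.12) were among the others called lower, and Ctse (1.47 ± 0.38) and Atp6v0a2 (0.62 ± 0.21) were higher. Without control 1 the count was 6 in place of 10.

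In Fcgr4 Ms4a7 macrophages without Mrc1, 5 members were higher and 2 lower (background 13.2%, with 5.01% higher and 8.16% lower). These were Ctse (1.23 ± 0.37), Atp6v0a2 (0.60 ± 0.18), Ctsh (0.43 ± 0.10), Ctss (0.34 ± 0.06) and Ctsz (0.26 ± 0.08) on the higher side, and Ctsd (-0.76 ± 0.08) and Atp6v0c (-0.22 ± 0.08) on the lower. Without irradiated 3, 4 members were called. In the Chil3 Slfn4 Arg1 macrophages of 6 tumors, 3 were higher and 2 lower (background 18.5%, with 10.1% higher and 8.33% lower), and Ctsl at 535 to 764 CPM (median 624) had the largest difference on the higher side (0.48 ± 0.07, edgeR adjusted p = 4.4e-05). Atp6v0a2 (0.45 ± 0.13) and Ctss (0.18 ± 0.06) were also higher, and Ctsf (-1.21 ± 0.29) and Ctsd (-0.43 ± 0.11) lower, but with total UMIs the split was 1 higher and 5 lower (higher calls among all genes 36.6% in place of 54.9%). Counts were 2 without irradiated 3 or without control 1, and 3 without irradiated 4.

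Cxcl9 macrophages, which express the interferon-induced chemokine of that name, had 3 members higher and 2 lower (background 6.77%, with 3.35% higher and 3.42% lower). Ctss (0.38 ± 0.08), Ctsh (0.34 ± 0.09) and Ctsz (0.27 ± 0.08) were higher, and Ctsd (-0.36 ± 0.09) and Ctsl (-0.27 ± 0.07) were lower. That count rested on single libraries, with 2 members called without irradiated 1, 3 without irradiated 2 and 1 without irradiated 3 or without control 1. Subset comparisons share cells with one another, since each subset is part of the remainder in the comparisons of the others.

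Irradiated and control tumors were then compared within each class. No member was called in macrophage-like (27 tested), MPNST-like (26), dendritic-like (22) or T/NK-like cells (24) by edgeR, nor by DESeq2, against a background of 0% of all genes called in each class by edgeR and 0.00584% to 0.383% by DESeq2. At an unadjusted p under 0.05 there was 1 member in each class (Ctss, Ctsc, Ctsz and Ctse in that order), where 8.53%, 1.38%, 8.26% and 5.35% of all genes passed, and DESeq2 gave 3, 2, 2 and 1 members at that level, where 9.41%, 1.5%, 5.83% and 2.68% of all genes passed in DESeq2. In summed counts a lower number of transcripts per cell and fewer cells of a transcript-rich subset cannot be told apart, and the share of Mrc1 C1q cells was not held fixed in these sums.

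The largest differences in macrophage-like cells among members at or above 10 CPM were those of Ctsf, Atp6v0a2, Ctss, Atp6v1g1, Ctsl and Ctsc. Ctss stood at 2862, 2658, 2613 and 3304 CPM in irradiated 1 to 4 and at 2307, 2076 and 2529 CPM in controls 1 to 3. Every irradiated tumor thus lay above every control, by a log2 fold change of 0.33 ± 0.13 (edgeR adjusted p = 0.56), and by 0.23 ± 0.11 within Mrc1 C1q macrophages alone. Ctsc stood at 1671, 1573, 1593 and 1857 CPM in the irradiated tumors and at 1443, 1419 and 1522 CPM in the controls, again without overlap (0.21 ± 0.10, edgeR adjusted p = 0.57). These were 2 of 27 members, where 6.98% of all genes did not overlap. Ctsf went the other way with overlap, at 17.5, 7.41, 11.3 and 3.35 CPM in irradiated and 12.2, 24.5 and 24.1 CPM in control tumors (-1.04 ± 0.50, edgeR adjusted p = 0.57). Atp6v0a2 was at 0.35 ± 0.15, Atp6v1g1 at -0.22 ± 0.12 and Ctsl at 0.21 ± 0.17. The libraries fell into those with over 7000 called cells (irradiated 1, controls 2 and 3) and those with fewer, and within these sets the log2 difference of Ctss was 0.32 and 0.30, and that of Ctsc 0.19 and 0.21.

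In MPNST-like cells 24 of the 26 members had a log2 fold change below 0, with a median of -0.13 beside -0.01 for all genes, and 0 passed the test. By that median, more of all genes tested also lay below 0 than above it. Scaling to total UMIs shifted all genes by 0.08, to a median of 0.07, and members below 0 were not counted under it. Atp6v0a4, with the largest difference, stood at 10.0, 10.0, 9.03 and 2.98 CPM in irradiated 1 to 4 and at 16.2, 13.6 and 8.52 CPM in controls 1 to 3 (-0.71 ± 0.39, edgeR adjusted p = 1.0). The groups overlapped, and within library sets the difference was -0.10 and -1.18. Atp6v0e (-0.30 ± 0.21), Atp6v1g1 (-0.29 ± 0.16), Atp6v1f (-0.24 ± 0.14), Atp6v0c (-0.21 ± 0.18) and Atp6v0b (-0.19 ± 0.14) followed. No member separated the groups, and 2.34% of all genes did.

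**Figure D5:**
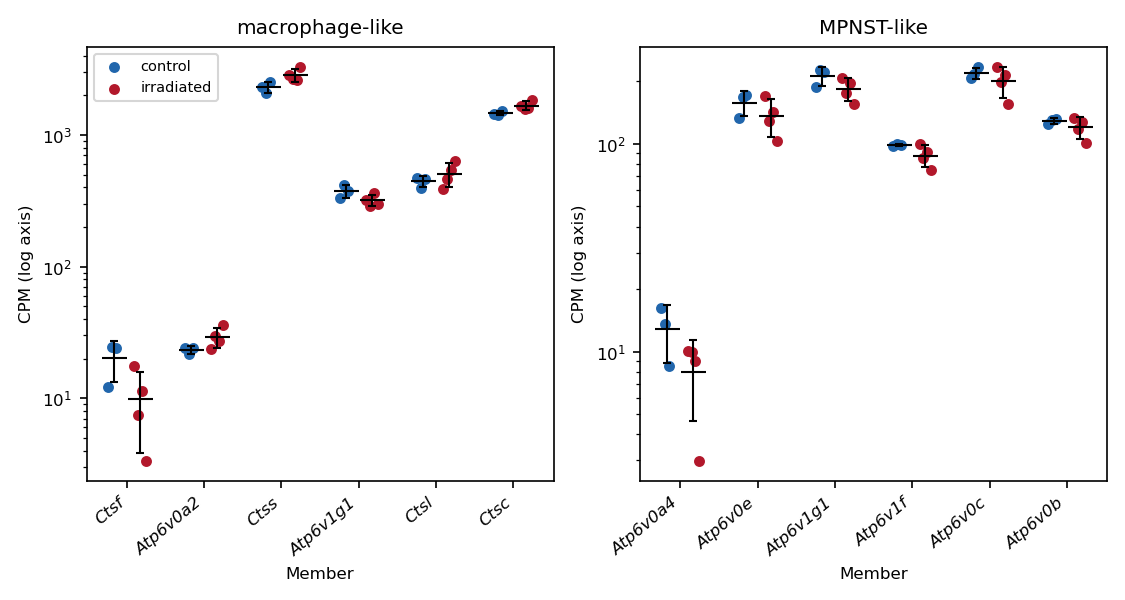
CPM per tumor (points, log axis) of the 6 members with the largest difference in each of 2 classes, macrophage-like (left) and MPNST-like (right), for irradiated (red, n = 4) and control (blue, n = 3) tumors. Black dashes are group means and bars the SD. Ctss in macrophage-like cells lies at 2613 to 3304 CPM in irradiated and 2076 to 2529 CPM in control tumors, and Atp6v0a4 in MPNST-like cells overlaps.

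Dendritic-like and T/NK-like cells had fewer cells and wider spreads. In dendritic-like cells Ctsl stood at 38.7, 3.92, 92.8 and 63.1 CPM in irradiated and 54.1, 225 and 119 CPM in control tumors (-1.38 ± 0.70, edgeR adjusted p = 0.62). Ctsc (0.52 ± 0.27), Ctsz (0.50 ± 0.22), Ctsh (0.47 ± 0.27), Atp6v0d1 (0.46 ± 0.25) and Ctss (0.46 ± 0.22) were above 0, and 0 of 22 members separated the groups (background 8.27%). In T/NK-like cells Ctse stood at 88.3, 71.1, 89.1 and 70.4 CPM in irradiated and 123, 139 and 67.8 CPM in control tumors (-0.52 ± 0.22, edgeR adjusted p = 0.92). Ctsl was at -0.85 ± 0.48, Atp6v0a2 at 0.46 ± 0.26, Ctsc at -0.41 ± 0.25, Atp6v1h at 0.34 ± 0.19 and Atp6v1a at 0.31 ± 0.24, and 0 of 24 members separated the groups (background 6.87%).

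The difference between the irradiation effects in macrophage-like and MPNST-like cells was tested as an interaction over both classes. It was called by edgeR for 0 of 28 members (background 0.012%), 2 members had an unadjusted p under 0.05 where 8.15% of all genes did, and these were Ctss at 0.88 ± 0.24 (log2, SE, edgeR adjusted p = 0.50) and Ctsc at 0.60 ± 0.21 (edgeR adjusted p = 0.54). The MPNST-like values of both genes lay near those of the macrophage markers. Of the other lysosomal lists, no gene was called in any of the 4 classes. The 2 with the largest change were Serpinb9 (0.75 ± 0.19) and Serpinb6b (0.72) in macrophage-like cells and Gm2a (-0.65) and Laptm5 (-0.64) in MPNST-like cells. In dendritic-like cells they were Serpinb6a (-1.68) and Cd63 (-1.42), and in T/NK-like cells Cd63 (-1.49) and Tfeb (1.06).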

How the data were processed

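Counts were UMIs per gene and cell, deposited by the authors as 1 filtered matrix per tumor, with file headers that name Cell Ranger 8.0.0, a later version than the study's methods do. The submitters' notes name Cell Ranger, Seurat 4.4 and mm10. Tumors were dissociated with papain, red cells were lysed, and 10000 cells were loaded per library. The matrices were read with Python 3.11.15, and doublets were scored with Scrublet in scanpy 1.11.5 (822 cells, 2.40%, kept in the main analysis). Cells were assigned by marker scores, and 3752 of 34296 retained cells stayed unassigned, while 3655 cells lay within 0.05 above the margin. MPNST-like cells were required to have no Xist UMI, since the line is male by the study's account and the hosts female. The 52 features that share their symbol with another feature were kept apart. The gate rule was set after inspecting these data, and the module, gene lists and comparisons were chosen with earlier results of these data known.

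Counts were summed per tumor and class (at least 20 cells) and tested with edgeR 4.0.16 in R 4.3.3 (TMM factors, expression filter, quasi-likelihood F test), the tumor being a block between classes. Alternatives were DESeq2 1.42.0, other scalings, no filter, all deposited cells, a stricter gate, doublets removed, library sets and each tumor left out. The fits were tested on simulated data with the same dispersion for all genes, in which 200 genes were given a log2 change of 2. For irradiated against control macrophage-like cells 96% of them were recovered, and 4% of calls were false. For MPNST-like cells these were 96.5% and 5.85%, and for macrophage-like against MPNST-like cells 96.5% and 3.98%. Apart from the 200 changed genes, all simulated samples had the same mean profile, also across the 2 classes. Between the real macrophage-like and MPNST-like cells 84.8% of all genes were called, so the simulation does not cover that setting. The simulated log2 change of 2 is larger than any irradiation difference named here, and the recovery of smaller changes was not tested. The members named in each comparison were the 6 highest and 6 lowest fold changes among those called with a mean of at least 10 CPM in 1 group, and for irradiation the 6 largest changes. Summed depth was 13630793 to 22380713 UMIs per tumor for macrophage-like, 21108361 to 93315609 for MPNST-like and 589930 to 1306225 for T/NK-like cells. Positions are those of GENCODE vM21, which held 31961 of the 33696 feature identifiers and all 39 members, except the promoter windows, which follow RefSeq starts. Ctss, Ctsd, Ctsl, Ctsm, Atp6v0a1, Atp6v0a4 and Atp6v1e1 overlap another gene on the same strand, so that some of their reads may be shared. The labels call the tumors biological replicates without naming the mice, and p-values measure the spread between these samples.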

Additional observations from a re-analysis of the deposited data

Results flagged for a closer look

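In 3 of the 32 groups of 4 irradiated values examined, 1 tumor stood apart by Dixon's criterion (gap over range above 0.829), which chance alone meets in about 1 in 20 groups. All 3 were irradiated 4. Its cathepsin genes took 1.04% of macrophage-like UMIs, against 0.934% to 0.939% in the other irradiated tumors (gap ratio 0.954). Atp6v0a4 in its MPNST-like cells was at 2.98 CPM, against 9.03 to 10.0 CPM (gap ratio 0.860). Ctsh in its dendritic-like cells was at 421 CPM, against 260 to 282 CPM (gap ratio 0.866).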

How the results depend on the processing

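Counts of members called stayed within 1.5 times the reported count in 253 of 268 repeats and moved further in 15. Repeats with 0 members called were among the 253 where the reported count was 0, as for irradiated against control and the interaction. For those comparisons the figure says little about stability. Of the log2 fold changes of named members, 1843 kept their direction and side of the threshold, 102 lost their call, 1 gained one and 3 reversed. Without the tumor as a block, 10 members were called in Mrc1 C1q macrophages (in place of 16), 4 in Fcgr4 Ms4a7 macrophages (7), 2 in Chil3 Slfn4 Arg1 macrophages (5) and 0 in Cxcl9 macrophages (5, and 3 with all deposited cells). Leaving out 1 tumor at a time gave 26 to 28 members called for macrophage-like against MPNST-like cells, 22 to 25 for dendritic-like, 24 to 26 for T/NK-like, 11 to 14 each for endothelial-like and fibroblast-like, 19 to 23 for osteoclast-like, 13 to 16 for Mrc1 C1q, 25 to 26 for cycling, 6 to 11 for Ly6c2, 4 to 6 for Fcgr4 Ms4a7, 2 to 6 for Chil3 and 1 to 5 for Cxcl9 cells. For irradiated against control it gave 0 in each class, and for the interaction 0 to 1, the 1 being without irradiated 1. The reversed values were Atp6v1e1 in Mrc1 C1q macrophages, -0.0188 with the library set as a term, and Atp6v0a4 in the interaction, 0.0136 with doublets removed and -0.86 to 0.26 with 1 tumor left out (0.26 without control 1). The cause was not tested.

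The replicate numbers did not pair irradiated with control tumors (correlations of same-numbered deviations -0.55 to 0.17, with 1 of 15 over 0.1), and with the number as a replicate block 0 members were called. Depth limits the small subsets, whose sums went down to 75829 UMIs per tumor in Ly6c2 monocytes.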
